A study of Schizosaccharomyces pombe with 4 samples.

Results

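The small (40S) subunit of the cytoplasmic ribosome of the fission yeast Schizosaccharomyces pombe is built from 1 rRNA and a set of proteins, the S proteins, and 55 of the 5113 annotated protein-coding genes of the 3 chromosomes carry a symbol of rps followed by a digit. Those 55 genes, chosen by symbol alone, are described here. They encode 31 proteins: 8 from 1 gene each, 22 from 2 genes, and eS4 from 3 genes. The annotation is RefSeq's for assembly ASM294v3, and the genes run from 429 to 1270 bp (median 669). Of the 55, 28 lie on chromosome I, 20 on II and 7 on III, and 31 have an intron.

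The 40S subunit binds mRNA and the initiator tRNA, finds the start codon and holds the decoding centre, where each codon is read. Its head and beak carry one group of proteins and its body and platform another. Ribosomal protein genes are among the most heavily transcribed genes of a growing yeast cell, and most fission yeast S proteins are encoded by duplicated genes scattered over the genome. Their promoters are known for 2 short elements, the HomolD box, which takes the place of a TATA box, and the HomolE box upstream of it.

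RNA polymerase II carrying a phosphate on serine 5 of the repeats in its tail (Ser5P), a mark of initiating and early elongating polymerase, was immunoprecipitated from formaldehyde-fixed cells in exponential growth in rich YES medium, and the DNA was sequenced. The labels give 4 samples: a ChIP and an input from wild-type cells, and a ChIP and an input from cells labelled ABP1d, which lack Abp1, a homolog of the centromere protein CENP-B (abp1Δ, called the mutant here). Each ChIP sample has 1 list of intervals, with a whole-number score per interval whose unit is not stated, while input data were not analysed here. Since a genotype has 1 list, replicates are lacking and genotypes cannot be tested against each other, so every difference below is one between these 2 lists. The wild-type list has 3242 intervals over 227413 bp and the mutant's list 2851 over 249934 bp. Scores are set beside each other between genes of a list and not read as a change between lists. The lowest score is 200 in both, read depth is unknown, and covered length depends on depth and scaling, so a gene without an interval may carry polymerase below that level. The deleted gene, SPBC1105.04c, has no interval in either list, so it does not check the genotype labels.

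The sequence just before the annotated start of the 40S genes was read first, since it holds what most of these genes share. The 100 bases before the start are printed here for rps2, whose highest score is the top one of the 40S genes in the mutant, for rps1201, the gene with the largest gain in the mutant, and its paralog rps1202, and for rps2601 and rps1902, which have no interval in their body. Capitals mark matches to HomolD (CAGTCACA) or to the middle 8 letters of HomolE (CCCTACCC), in either orientation. The stretches are chrIII:2096037-2096136 (minus strand) for rps2, chrIII:553074-553173 (plus strand) for rps1201, chrII:499045-499144 (minus strand) for rps1202, chrI:236028-236127 (minus strand) for rps2601 and chrII:535242-535341 (plus strand) for rps1902, all on ASM294v3.
rps2: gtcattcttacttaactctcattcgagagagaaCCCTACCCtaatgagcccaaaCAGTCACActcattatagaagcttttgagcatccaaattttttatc
rps1201: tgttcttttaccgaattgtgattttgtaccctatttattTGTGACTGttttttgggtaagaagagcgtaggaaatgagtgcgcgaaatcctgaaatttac
rps1202: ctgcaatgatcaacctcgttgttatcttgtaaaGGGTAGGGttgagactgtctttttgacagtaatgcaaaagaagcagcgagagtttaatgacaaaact
rps2601: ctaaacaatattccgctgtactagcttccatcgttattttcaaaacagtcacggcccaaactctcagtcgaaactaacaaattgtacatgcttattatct
rps1902: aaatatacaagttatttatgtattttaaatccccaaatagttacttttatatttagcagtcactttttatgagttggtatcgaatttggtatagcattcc

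The HomolD letters stood in 34 of the 55 windows from 250 bp before to 50 bp after the start (61.8%), against 2.68% of all protein-coding genes. The first base of the nearest match lay 43 to 75 bp before the start, with a median of 52. The HomolE core stood in 23 windows (41.8%), against 1.58% of all genes, with its nearest match 59 to 90 bp before the start (median 69). Both motifs were found before 11 genes and neither before 9. In those 11 the matches to the motifs share no base. The genes for the large (60S) subunit and its stalk had similar shares, 54 and 26 of 86. Many windows without the full HomolD letters hold all but the last: the first 7 letters alone, a search chosen after seeing these sequences, were found before 50 of the 55 genes and before 4.71% of all genes. rps2601 and rps1902 are 2 of these, and the 5 genes without them include rps1202, rps1401 and rps2302, which have the HomolE core, and rps902, which has neither. An interval was about as common with the full HomolD letters as without them. Of the 34 genes with HomolD 32, and of the 21 without it 19, had an interval in their body in at least 1 list. Since only 5 genes lack the first 7 letters too, this hardly sets presence of HomolD against its absence. The median share of the body covered was 47.6% with HomolD and 48.9% without it in wild type, and 36.9% and 22.0% in the mutant. Among genes with the HomolE core the median share of the body covered was 50.6% in wild type and 41.9% in the mutant, and among the 32 without it 41.1% and 30.4%. A match is a match of letters and not a measured binding site.

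**Figure D1:**
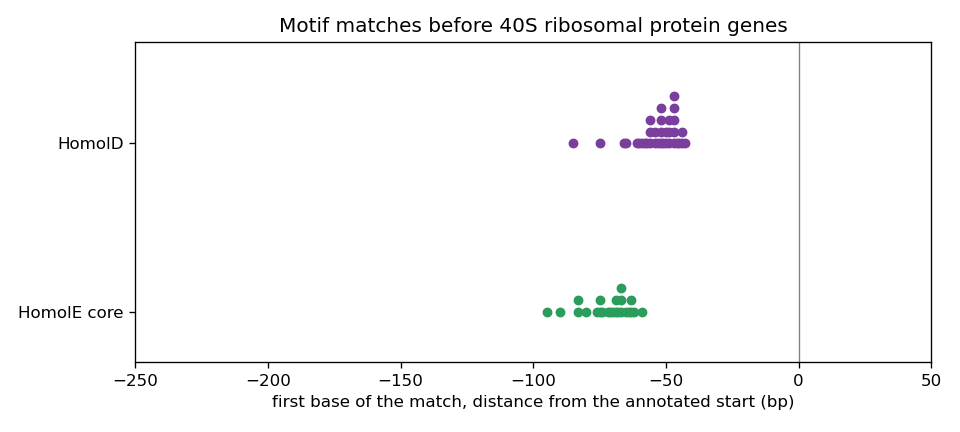
Position of HomolD (top) and HomolE core (bottom) matches before 40S ribosomal protein genes, by the first base of each match in bp from the annotated start, with stacked points where genes share a position. HomolE matches lie farther from the start (nearest match at a median of 69 bp) than HomolD matches (52 bp).

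Nearly all 40S genes carried Ser5P intervals, many times the share among all genes. An interval met the gene body in 48 of 55 genes in wild type (87.3%) and in 48 in the mutant, against 7.18% and 7.12% of all protein-coding genes. For the 60S and stalk genes the shares were 76.7% and 72.1%. In 45 genes both lists had an interval, 3 had one in wild type alone and 3 in the mutant alone, and 4 had none. Each count of 3 is 5.45% of the 55, against 0.939% and 0.88% of all genes, but 5.88% of the 51 genes with an interval, against 11.7% and 10.9% of all genes with one. The 55 genes span 39372 bp, with coverage of 16833 bp in wild type (42.8%) and of 15598 bp in the mutant (39.6%). They hold 7.40% of the covered bases of the wild-type list and 6.24% of those of the mutant's list. The median gene was covered over 47.9% of its body in wild type, with quartiles of 13.2% and 61.6%, and over 36.0% in the mutant, with quartiles of 11.1% and 56.7%. The order of the genes was alike in the lists, with a Spearman correlation of 0.82 for the share covered over the 55 genes. These points share gene length, base composition and the sequence copies described below.

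**Figure D2:**
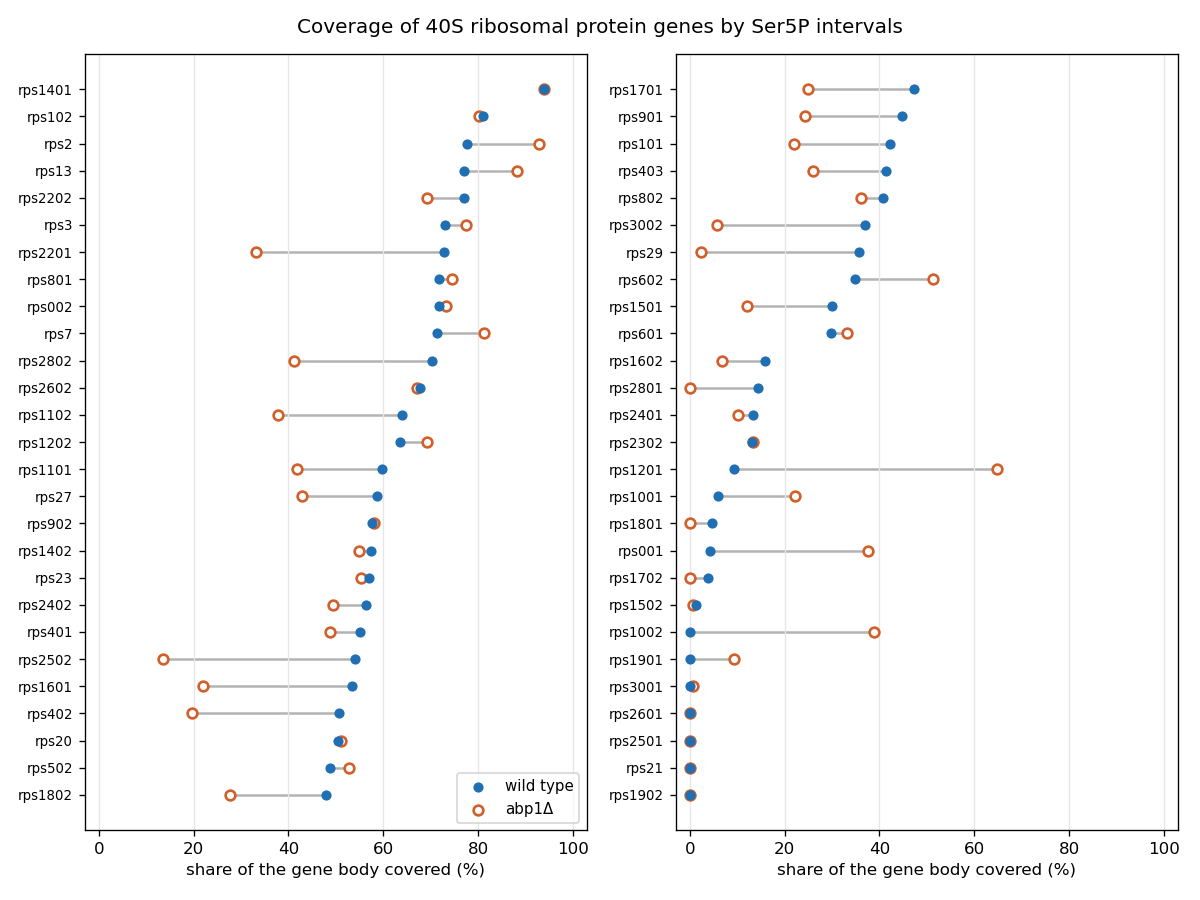
Share of the gene body covered by Ser5P intervals (%) for 54 of the 55 40S ribosomal protein genes, sorted by the wild-type value, with filled points for wild type, open points for the abp1Δ mutant and a line joining them. Among all 55, 30 have the higher value in wild type and 20 in abp1Δ, and rps1201 has the longest line to the right, from 9.30% to 64.8%.

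Coverage lay inside and at the far end of the genes and hardly before them. At 100 bp before the start no 40S gene was covered in wild type and 1 was in the mutant. At 200 bp past the start 11 and 12 of 55 genes were covered, at 300 bp 25 and 22, and at 575 bp 31 and 32 of the 39 genes that are long enough. The first covered base lay at a median of 228 bp from the start in wild type and 252.5 bp in the mutant, and the last at 24 and 31 bp from the end. Past the end 15 genes were still covered at 100 bp in wild type and 10 in the mutant, and 5 and 4 at 200 bp. An interval met the 500 bp after the end of 31 genes in wild type and 27 in the mutant (56.4% and 49.1%, against 4.97% and 5.01% of all genes), with 3162 and 2408 covered bp. The 500 bp before the start had one at 4 genes in each list (7.27%, against 2.33% and 2.09%), with 120 and 485 covered bp. Of the latter, 78 and 451 bp lay before rps1602 alone. Outside any protein-coding gene the covered length was 1675 and 1142 bp after the end and 20 and 83 bp before the start. In the 31 genes with introns 18.2% of intron bases were covered in wild type and 11.7% in the mutant, against 39.8% and 39.5% of exon bases. The part of the introns' position in the gene was not tested.

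**Figure D3:**
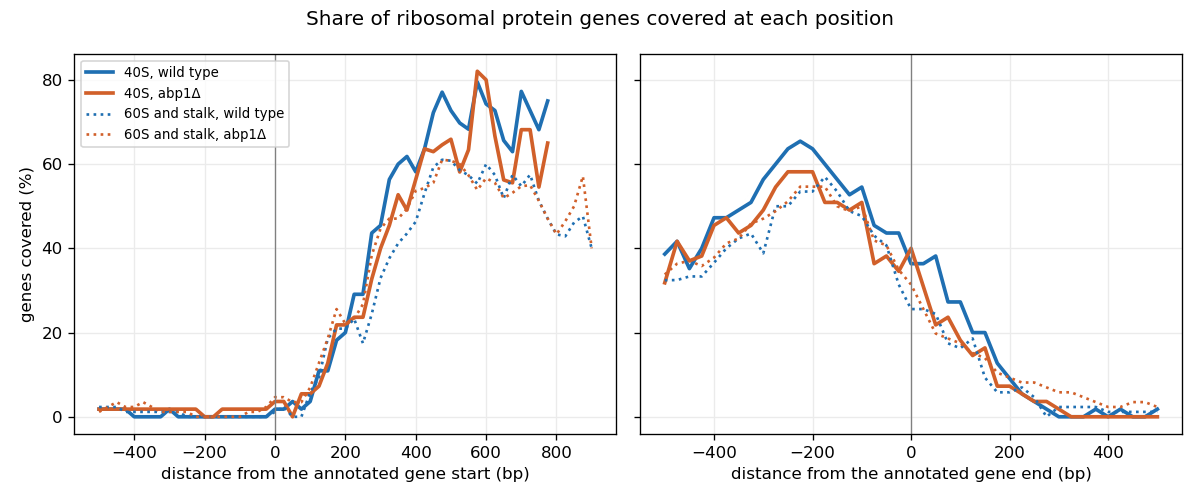
Share of genes covered (%) against the distance in bp from the annotated start (left, positions past the gene's end left out) and from the annotated end (right), for the 55 40S genes (solid) and the 86 60S and stalk genes (dotted) in wild type (blue) and abp1Δ (orange), shown where at least 20 genes are long enough. In both lists coverage is near 0 before the start and high farther inside, where 31 and 32 of 39 40S genes are covered at 575 bp.

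Genes for proteins near the decoding centre and the mRNA entry channel ranged from nearly full coverage to almost none. rps2, the 1 gene for uS5, which takes part in decoding accuracy, had 700 bp covered in wild type and 838 in the mutant, or 77.6% and 92.9% of its body. Its highest score was 664 in the first list and 931 in the second, the top value of the 40S genes there. rps3 encodes uS3, which lines the mRNA entry channel, and had 823 and 873 covered bp with scores of 475 and 565. rps20, whose start lies 490 bp from that of rps2 on the other strand, encodes uS10 and was nearly level, with 248 and 251 bp. The uS12 genes, for a protein of the decoding centre, differed from each other more than between lists: rps23 had 277 and 269 covered bp and rps2302 had 72 and 73. Of the uS4 genes, for another protein tied to decoding accuracy, rps902 had 385 and 388 bp and rps901 had 344 and 186. Of the eS30 genes, rps3002 had 182 bp in wild type (37.0%) and 28 in the mutant (5.69%). Of these, 180 and 28 bp lay in bases shared with abz2 on the other strand. rps3001 had none and 3. Of those 3 bp, 2 had a score of 200. The other was the first base of an interval that runs on past the gene's end. The next 500 bp had 101 and 119 covered bp, all in fcp1 on the other strand.

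Among the 55 genes, those for proteins of the head and beak had a lower median coverage than those for the body and platform in both lists. The head also holds proteins whose genes are not among the 55. One of these genes, cpc2, was covered over 85.1% of its body in wild type and 87.0% in the mutant. The 23 head genes (13 proteins) had medians of 30.0% and 22.0% covered in wild type and the mutant, and highest scores with medians of 281 and 267.5 among those with an interval. The 32 genes for the other 18 proteins had medians of 56.7% and 42.3%, and scores of 485 and 463.5. The split was made with the values known and carries no test. Most head genes have an intron and most of the others have none. By intron alone the medians were 37.0% and 24.2% in the 31 genes with one, and 56.0% and 45.3% in the 24 without. The part of introns in the difference between head and body was not tested. Of the genes for uS9, whose tail reaches the tRNA, rps1601 had 438 and 180 bp and rps1602 96 and 41. The uS19 genes had 206 and 83 bp at rps1501 and 8 and 4 at rps1502. rps29, the 1 gene for the zinc-binding uS14, had 161 bp in wild type and 11 in the mutant.

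The 8 proteins with 1 gene each had genes covered over more of their body than those with paralogs, with medians of 64.9% and 64.3% against 44.7% and 33.1% for the 47 others. Beside rps2, rps3, rps20 and rps29 they include rps13, for uS15 of the platform, with 633 and 725 bp, and rps7, for eS7, with 558 and 637. rps27, for the zinc-binding eS27, lies 441 bp downstream of rps29 and had 389 and 284 bp. Of the 7 covered ones rps27 and rps29 had more in wild type and the other 5 had more in the mutant.

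The genes whose share covered differed most between the lists were taken by rule, 5 in each direction. The largest gain in the mutant was at rps1201, for eS12 of the beak, with 62 covered bp in wild type and 432 in the mutant (9.30% and 64.8%). It lies on chromosome III, where the mutant's list holds more covered bases in all, 52175 against 39335 bp. Within 25 kb on each side of rps1201, its own bases left out, the lists covered 3905 bp in wild type and 5244 in the mutant, and the part of this in the gain was not tested. rps1002, for eS10 at the beak, had no interval in wild type and 211 bp in the mutant (38.9%), and its paralog rps1001 had 60 and 223 bp. Around rps1001 the lists covered 1648 bp in wild type and 3211 in the mutant, and around rps1002 none and 9. rps001, for uS2, had 45 and 391 bp (4.34% and 37.7%) with 194 and 247 bp more in the 500 bp after its end. rps602, for eS6, a protein phosphorylated downstream of the TOR kinase, had 282 and 416 bp, and its paralog rps601 had 377 and 422. All of these genes but rps602 were covered over less than 10% of their body in wild type. A choice by the size of the gain favours low wild-type values.

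On the other side, the largest losses in the mutant were at genes covered over 35.6% to 72.8% of their body in wild type. The rule itself favours such genes, since a gene cannot lose more than it had. rps2502, for eS25, had 232 bp covered in wild type and 58 in the mutant (54.1% and 13.5%). rps2201, for uS8, had 332 and 151 bp (72.8% and 33.1%), while its paralog rps2202 had 616 and 553 bp. rps29 went from 35.6% to 2.43%. rps1601 went from 53.5% to 22.0% and rps3002 from 37.0% to 5.69%. Around rps2201 the wild-type list covered 3604 bp and the mutant's list 2280, and for the other 4 the values around the gene were 156 and 193 bp (rps2502), 2903 and 3234 (rps29), 1162 and 1111 (rps1601), and 212 and 16 (rps3002). The gene of these with the longest body is rps1601, with 819 bp. rps3002 shares 247 bp with abz2 on the other strand. That stretch held 180 of its 182 covered bp in wild type and all 28 in the mutant. The rest of abz2 was covered over 23.5% and 1.78%, so the lists alone cannot assign this loss to rps3002. The 500 bp after rps3002, with 212 covered bp in wild type and 16 in the mutant, account for all that was covered within 25 kb of it.

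Counted over all members, more 40S genes had the longer coverage in wild type, although the mutant's list is the longer one. Among the 51 genes covered in at least 1 list, 30 were covered over more bp in wild type, 20 in the mutant and rps1401 had 547 bp in each. Of all protein-coding genes with an interval 179 had more in wild type and 224 in the mutant, and of the 60S and stalk genes 30 and 35. At 1.5 times or more, 19 of the 51 were higher in wild type (37.3%, against 24.5% of the 412 genes with an interval) and 6 in the mutant (11.8%, against 27.9%). The median difference in the share covered, the mutant minus wild type, was -2.44 percentage points over the 51 genes and 0.60 over the 412. Of the genes under 700 bp 20 had more in wild type and 8 in the mutant, and of those of 700 bp or more 10 and 12, although the median share covered of the longer genes was also lower in the mutant (37.7% against 48.9%). Genes with paralogs gave 28 and 15 and single-gene proteins 2 and 5. Genes that share no base with another gene gave 23 and 13 and the others 7 and 7, and genes without the HomolE core gave 19 and 10 and those with it 11 and 10. No difference between such splits was tested. Without chromosome III the counts were 26 and 17, and 15 and 5 of 44 at 1.5 times or more.

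The 3 genes with an interval in wild type alone were weakly covered there. rps1702, for eS17, had 21 bp with a score of 240, rps1801, for uS13, which contacts the tRNA and the large subunit, had 32 bp with 242, and rps2801, for eS28, had 67 bp with 261. In each case the paralog was covered in both lists: rps1701 with 425 and 223 bp, rps1802 with 290 and 168, and rps2802 with 325 and 190. The 3 genes with an interval in the mutant alone were rps1002 and rps3001, given above, and rps1901, for eS19, the protein first linked to Diamond-Blackfan anaemia in humans, with 70 bp and a score of 255. The scores of rps1002 and rps3001 there were 261 and 239. The second is that of an interval that lies in fcp1 on the other strand and meets rps3001 by 1 base. Wild type had an interval in fcp1 just past the end of rps3001 too. All 6 genes were thus scored at 261 or less where they were covered, with 200 the lowest score in the lists.

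The genes without any interval in their body were rps1902 (eS19), rps21 (eS21), rps2501 (eS25) and rps2601 (eS26). For eS21 this is the 1 gene, so the protein has no covered gene in either list. For eS25 and eS26 the other copy was covered: rps2502 as given above, and rps2602 with 438 and 433 bp (67.8% and 67.0%). eS26, which lies at the mRNA exit channel, thus had all its coverage on rps2602. rps2601 had 2 covered bp within 500 bp of its end in wild type and none in the mutant. rps2602 lies wholly inside SPAC1805.10 on the other strand, which was covered over 8.72% and 8.66% of the rest of its length.

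Overlap with other genes touches 15 of the members, and 6 lie wholly inside a gene of the opposite strand: rps1202 in pmp1, rps1401 in aar2, rps23 in ice2, rps2602 in SPAC1805.10, rps2802 in trs130 and rps902 in pdp1. ChIP reads carry no strand of transcription, so these intervals cannot be told apart from ones of the host gene by the lists alone. The same limit applies to rps3002, whose covered bases lie nearly all in abz2, and to the base of rps3001 that meets the fcp1 interval. Outside the 40S gene these 6 hosts were covered over 1.03% to 11.8% of their length in wild type and 0.83% to 8.66% in the mutant, against 57.0% to 94.0% and 41.1% to 94.0% of the 40S genes inside them. The 40 members that share no base with another protein-coding gene had medians of 41.1% and 26.9% covered, and the 15 others 57.8% and 58.1%.

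Comparing paralogs came next, since it shows whether the copies of a protein are alike in Ser5P. Of the 23 proteins with several genes, 4 had a covered and an uncovered copy in wild type (eS10, eS25, eS26 and eS30) and 6 in the mutant (eS17, eS19, eS25, eS26, eS28 and uS13). Copies differed in length of coverage too: of the uS2 genes rps002 had 774 bp in wild type where rps001 had 45, and of the eS1 genes rps102 had 744 and rps101 388. The share covered was closer for the eS12 pair in the mutant, with 64.8% for rps1201 and 69.2% for rps1202, than in wild type, with 9.30% and 63.6%. rps2401 and rps2402, for eS24, had scores of 450 and 463 in wild type and 451 and 476 in the mutant, but 92 and 326 covered bp in the first list and 70 and 286 in the second. The coding sequences of the 25 pairs of copies (3 of them among the eS4 genes) were 74.9% to 94.3% identical, with a median of 88.0%.

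How alike the scores of 2 copies were went with the sequence they share exactly. In 6 pairs the copies share an identical run of at least 50 bp. In these pairs the highest scores of the copies differed by a median of 0.32% in wild type (range 0 to 7.24%) and 2.63% in the mutant (range 0 to 11.2%), as a share of the higher one. In the pairs with shorter runs and both copies covered, 14 in wild type and 13 in the mutant, the medians were 26.1% (range 1.96 to 48.0%) and 10.9% (0.78 to 51.3%). None of the 6 pairs was split between a covered and an uncovered copy, against 4 and 6 of the 19 other pairs. A read that falls in an identical run cannot be assigned to 1 copy, and the authors' treatment of such reads is not known here. Where the highest interval of both copies lies on the run, their scores may rest on the same reads, and like scores there do not show equal polymerase. In wild type this does not hold for uS9 and uS11. The highest interval of rps1602 (328) lay off the run, on which its score was 278 against 327 in rps1601. That of rps1402 (410) lay off a run with a score of 391. In the mutant the highest intervals of rps2201 and rps2202, for uS8, each met only 5 bp of a run of 52 bp. An interval has 1 score, so where in a wide interval its peak lies is not known. With the read length unknown, runs under 50 bp may be affected too: the highest intervals of rps2401 and rps2402 lie over a shared run of 44 bp, and those of rps901 and rps902, with 551 and 562 in wild type, over one of 38 bp.

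Runs of this kind are shown for 2 pairs because the highest interval of each copy lies over them: 95 coding bases of eS4 (rps401 and rps403) and 60 of eS8 (rps801 and rps802). Capitals mark the identical run, with up to 20 bases around it in lower case, so that the point where the copies part can be seen. The stretches are chrII:3245612-3245746 (plus strand) for rps401, chrI:3399725-3399859 (plus strand) for rps403, chrI:4286938-4287037 (minus strand) for rps801 and chrI:849898-849997 (plus strand) for rps802.
rps401: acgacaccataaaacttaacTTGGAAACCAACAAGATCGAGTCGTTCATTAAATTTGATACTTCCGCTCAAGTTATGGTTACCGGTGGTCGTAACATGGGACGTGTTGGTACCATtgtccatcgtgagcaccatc
rps403: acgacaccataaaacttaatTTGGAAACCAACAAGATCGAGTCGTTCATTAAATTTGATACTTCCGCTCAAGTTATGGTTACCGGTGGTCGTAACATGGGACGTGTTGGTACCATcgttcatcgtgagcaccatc
rps801: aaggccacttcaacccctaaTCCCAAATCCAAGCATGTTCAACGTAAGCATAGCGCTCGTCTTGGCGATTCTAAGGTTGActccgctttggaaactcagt
rps802: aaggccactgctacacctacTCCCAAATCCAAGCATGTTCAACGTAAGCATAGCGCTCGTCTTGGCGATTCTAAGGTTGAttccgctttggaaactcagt

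Over these runs rps401 and rps403 had 589 and 591 in wild type and 469 and 462 in the mutant. For rps801 and rps802 the scores were 656 and 657, and 699 and 703. The other run that this pair shares, 62 bp near the start, had scores of 257 and 255 in wild type and no interval in the mutant. The second run of the eS4 pair, 68 bp, had scores of 589 in rps401 and 431 in rps403 in wild type, and 469 and 331 in the mutant. These scores were not alike: in rps401 1 interval spans both runs, and in rps403 each run has an interval of its own. Over the whole body the eS8 copies differed: rps801 had 495 bp covered in wild type and 513 in the mutant, and rps802 had 316 and 280. The third eS4 gene, rps402, which shares no run of 50 bp with the other copies, had a highest score of 319 in wild type and 233 in the mutant, with 511 and 199 covered bp. In all, 12 members have bases in a 50-mer that occurs more than once in the genome, 1988 bp in all. Of these bases 93.6% were covered in wild type and 86.1% in the mutant, against 45.7% and 38.0% of the other bases of the same genes. The part of their position in the gene was not tested.

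**Figure D4:**
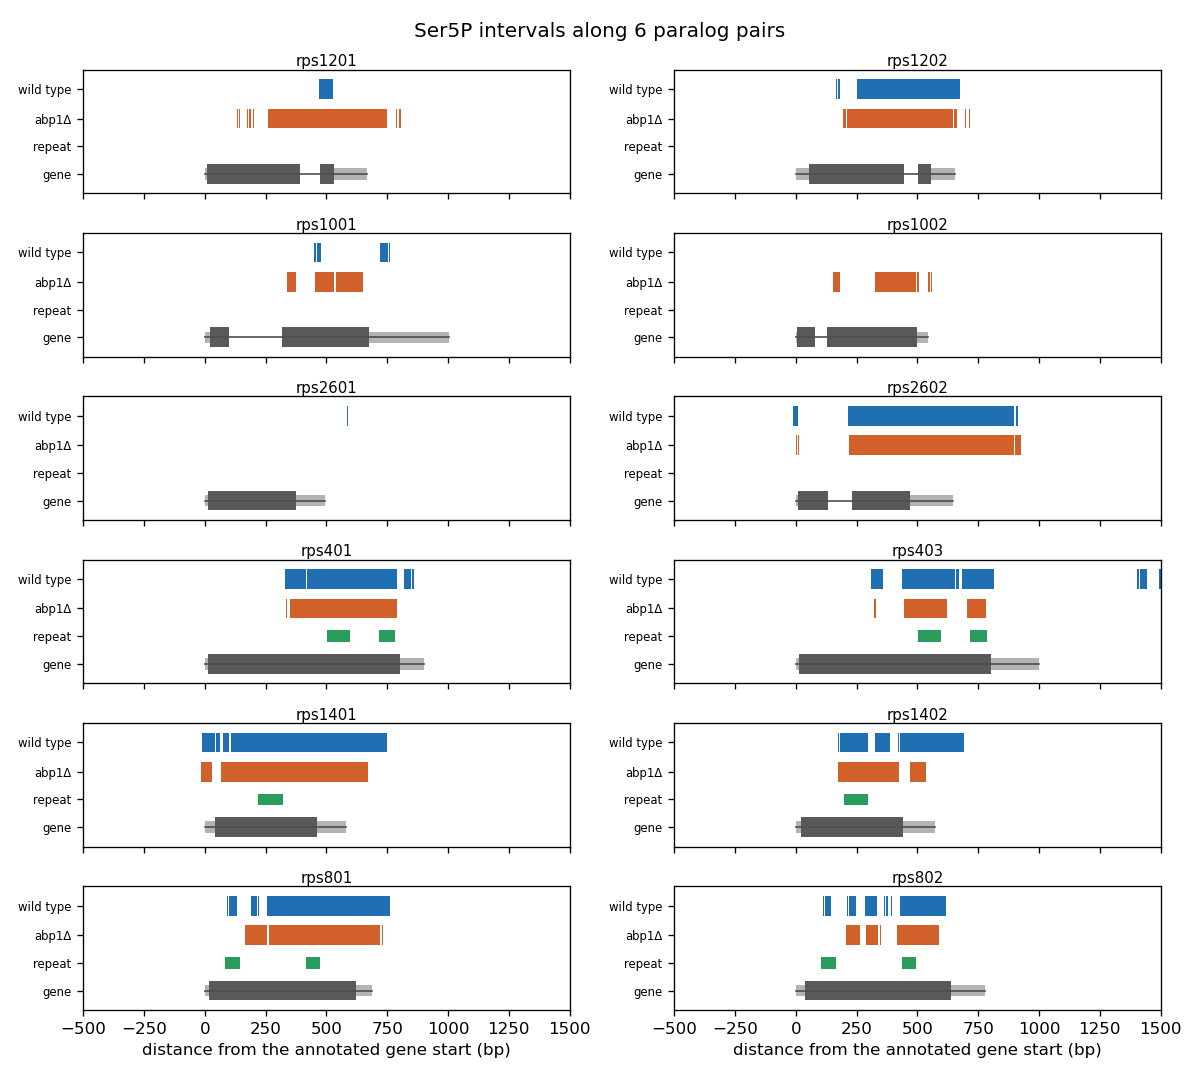
Ser5P intervals (blue wild type, orange abp1Δ) along 6 paralog pairs, in bp from the annotated start, with coding exons in dark grey, untranslated exon parts in light grey, introns as a line and bases of repeated 50-mers in green. Of the 101 repeated bases of each uS11 copy 100 (rps1401) and 96 (rps1402) were covered in wild type, rps2601 has no interval in its body and rps1201 has 62 covered bp in wild type and 432 in the mutant.

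**Figure D5:**
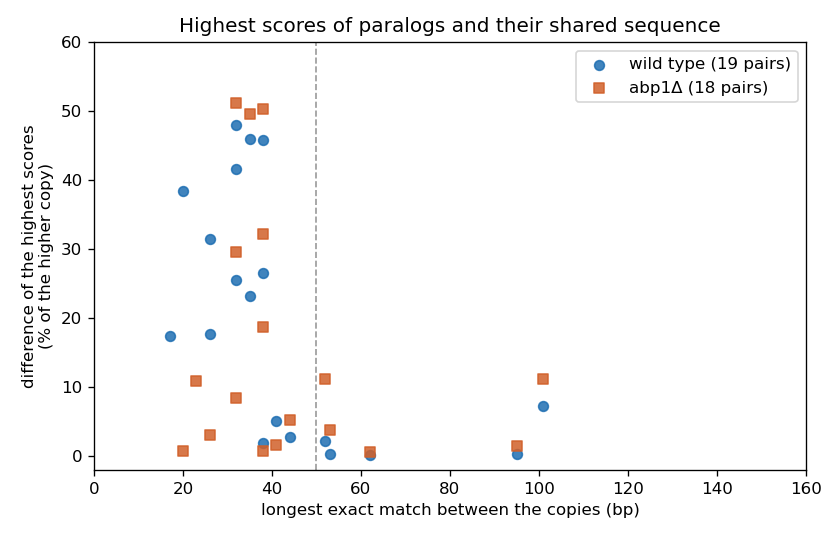
Difference between the highest scores of 2 paralogs, in % of the higher one, against their longest exact match in bp, for pairs with both copies covered in wild type (circles, 19 pairs) or abp1Δ (squares, 18 pairs), leaving out 1 pair that is not reported here, with a dashed line at 50 bp. Pairs to the right of the line differ by at most 7.24% in wild type and 11.2% in the mutant.

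The other genes of the pathway were counted the same way. Of 17 matched genes for other 40S components and initiation factors that act on the subunit, 5 had an interval in each list (29.4%, against 7.18% and 7.12% of all protein-coding genes). The RACK1 gene cpc2, for a protein of the head, had 1291 bp in wild type and 1320 in the mutant, and the fusion genes ubi3 and ubi5, for ubiquitin joined to eS31, had 446 and 445, and 287 and 280. sui1, for an initiation factor, had 43 and 39. The initiation factor gene tif11 had 79 bp in wild type alone, and tif5 had 27 in the mutant alone. Of 34 matched genes for 40S assembly and rRNA processing 2 were covered in wild type (5.88%) and 3 in the mutant (8.82%), and of 14 matched regulators 1 in each (7.14%), shares near those of all genes. In the first of these lists gar2, for a nucleolar protein, had 225 and 1056 bp, rrp5 40 and 347, and fib1, for fibrillarin, none and 50. The covered regulator was sfp1, with 1857 and 2196 bp. More genes had the longer coverage in the mutant in the genome as a whole too, so nothing about these lists is read from that direction.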

How the data were processed

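The 2 ChIP samples, 1 per genotype, were analysed from their interval lists. Per the labels' protocols, cells were fixed with 1% formaldehyde for 15 min, quenched with 125 mM glycine, and chromatin was sheared to 250 to 400 bp. Bowtie 0.12.5 is named in the submitters' processing notes. Not given in the sources used here: peak caller, genome build, scaling, use of the inputs, and handling of multiply matching reads. The score of each interval was deposited by the authors as a whole number of unstated unit, and was used within a list only.

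Intervals, read as 0-based and half-open, were set on ASM294v3. As deposited, protein-coding genes held 89.6% (wild type) and 90.4% (abp1Δ) of covered bases, and no more than 77.4% and 79.3% after a shift of 500, 1000 or 2000 bp either way. Each gene's covered bases from annotated start to end, its highest score and 500 bp flanks were computed with Python 3.11.15, pandas 2.3.3 and Biopython 1.88, and the overlap code was tested on simulated intervals. Repeats are 50-mers found more than once, on either strand. Paralogs were grouped by symbol, and coding identity comes from global alignment. No p-value was computed, since a genotype has 1 list. The members, gene lists and groups were chosen with earlier results of these data known. Genes named are those with an interval in 1 list alone or none, the 5 highest scores, the 5 largest gains and losses, and split paralog sets, and others were named after their values were seen. Of the members 1 is not reported here by name, and it stays in the counts and medians. Of the other pathway lists 17 of 18, 34 of 40 and 14 of 15 symbols matched. Alternatives were score minimum, list length, coding region, exons, a 10% minimum, merging, repeats, overlaps, chromosome III, flank size and motif window.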

Additional observations from a re-analysis of the deposited data

How the results depend on the processing

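Of 129 recomputed values, 123 stayed within 1.5 times the reported one. Direction was checked only for the difference in covered length, which stayed negative under every setting it was computed for. More 40S genes had the longer coverage in wild type under all 9 settings of that count, the reported one included. The difference in covered length, abp1Δ minus wild type, was -1235 bp, and -748 bp when counted between the first and last coding base; the cause was not tested. In wild type the paralog sets with a covered and an uncovered copy went from 4 to 8 when 10% of the body had to be covered. They also went to 8 without bases shared with another protein-coding gene. That setting leaves no base of the 6 genes that lie wholly inside another gene and counts them as uncovered. Its 8 sets therefore do not show copies that differ in coverage. In abp1Δ the number of such sets went from 6 to 3 without chromosome III, which removes copies. So the list with more such sets changed with the setting. Wild type and abp1Δ had 8 and 7 at the 10% minimum, and 4 and 3 without chromosome III. Without flank bases inside another protein-coding gene, 21 genes in wild type and 17 in abp1Δ kept an interval in a flank, in place of 32 and 28. Depth is unknown, so coverage below a score of 200 is not seen. No paired analysis was possible because each genotype has 1 list.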
